A study of Bos taurus with 17 samples.

Results

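The net change of bovine umbilical cord mesenchymal stem cells over 21 days on plastic was measured by comparing the 2 libraries of day 21 with the 3 libraries of day 0, 5 of the 17 libraries that the labels describe. The comparison covers the 10954 genes, of 12894 with values, whose mean reached at least 5 normalized reads over these 5 libraries, set against each other as log2(value + 1). The cells are primary stromal cells, studied as a source for cultivated meat on cellulose scaffolds. Day 0 cells had been seeded 1 day earlier, had received no treatment, and came from low glucose DMEM with 10% fetal bovine serum. Day 21 cells had spent 21 days in a myogenic differentiation medium, DMEM/F-12 with 2% serum, 1% ITS, 1% albumin, 1e-08 M dexamethasone, 1e-04 M ascorbic acid 2-phosphate and 3 growth factors: VEGF (the vascular endothelial type) and IGF (the insulin-like type) at 10 ng/mL each, and FGF (the fibroblast type) with no dose named. Time in culture, serum, glucocorticoid and growth factors therefore changed together and cannot be told apart. The 3 libraries of day 3 in the same medium are given beside the results as values only.

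Mesenchymal stem cells divide freely on plastic in serum and can be steered towards bone, cartilage, fat or muscle-like fates. When such cells become crowded or leave serum, they commonly stop dividing and turn to laying down collagen, elastic fibres and proteoglycans, the work of a resident connective tissue cell. A myogenic medium is meant to draw them towards muscle, whose hallmark is the ordered sarcomere of actin and myosin. Contractile genes of the smooth muscle type are also made by myofibroblasts and by the mural cells that wrap vessels.

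Recovered reads per library ran from 8952711 to 15483745 at day 0 and were 5264578 and 2197356 at day 21, so that 1 read was worth at most 0.703 normalized reads at day 0 and 1.38 and 3.44 at day 21. Replicates correlated across genes at 0.991 to 0.992 at day 0 and at 0.962 at day 21, and libraries of different days at 0.770 to 0.806. The design text calls the libraries biological replicates, but no label says that they came from separate animals or cultures. The p-values measure only the spread between these libraries, which may be technical, and for a single value the smallest two-sided exact permutation p of 3 libraries against 2 is 0.2. With limma, 4957 of 10954 genes were called at a Benjamini-Hochberg adjusted p under 0.05 and a change of at least 2-fold, which is 45.3% of genes: 2365 (21.6%) higher and 2592 (23.7%) lower. The libraries of the 2 days did not overlap for 80.4% of genes, with day 21 above for 39.3% and below for 41.1%. With all libraries rescaled to the same total, the median over the tested genes shifted by −0.26 on the log2 scale, and there were 1858 higher and 3243 lower genes, a share of higher genes of 36.4% in place of 47.7%. Each gene list below was chosen with earlier results known, and its counts are a description beside the median of all genes, −0.05. The background of these counts is the share over all genes, 21.6% higher and 23.7% lower, and counts near it say nothing particular about a list. Members that are low at day 0 can have reached the minimum mean through day 21 alone. In bulk RNA, fewer cells of a kind and less RNA per cell cannot be told apart.

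CD34 and DES are left aside here. The day 0 and day 21 libraries did not overlap for any of the 186 other genes named below as having risen or fallen. Their limma adjusted p ran up to 0.042. These genes were chosen by their calls in the same libraries, and 80.4% of all tested genes did not overlap. The lack of overlap, here and where it is given below, is therefore a description and no added support. Values given without 1 day 21 library rest on a single day 21 library, which is assumed to vary as day 0 does. Where a group held 1 to 3 reads of a gene, the fold between the days is taken from pooled reads scaled for depth, with an exact 95% interval that covers counting error only. Where it held 0 reads, 3 reads over the group serve as the floor and give the least fold.

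The change was broad, and it also reached the genes that took most reads. Of the 15 genes with the most reads at day 0, 9 were also among the 15 at day 21. S100A4, a calcium binding protein of migrating stromal cells, took 1.86 to 2.33% of normalized reads at day 21, more than any other gene, and 0.400 to 0.465% at day 0. Its values were 29271, 24279 and 27969 normalized reads at day 0, 65564, 73190.5 and 44165 at day 3 and 134941 and 175654 at day 21, so every later library lay above every day 0 library. The intermediate filament gene VIM had values of 83685, 74158 and 73249 at day 0 and 71424 and 63983 at day 21 and was not called (log2 fold change −0.19, limma adjusted p = 0.12). Cytoplasmic gamma actin, ACTG1, went from 63399.6, 56459 and 50015 to 17272 and 9402 (log2 fold change −2.14). Among called genes, 235 rose and 116 fell by at least 16-fold, and 67 rose and 8 fell by at least 64-fold, both on the log2(value + 1) scale. The falls of at least 16-fold included UBE2C, a ubiquitin-conjugating enzyme of mitotic exit, from 2515, 2504 and 2314 to 38.6 and 34.4, and CDC20, which activates the same step, from 1489, 1324 and 1303 to 16.6 and 41.2. The rises of at least 64-fold included CHI3L1, a secreted chitinase-like protein, from 3.52, 1.07 and 1.18 to 2203 and 1801, and MSMP, a small secreted protein, from 7.74, 3.2 and 1.97 to 3227 and 2374.

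**Figure D1:**
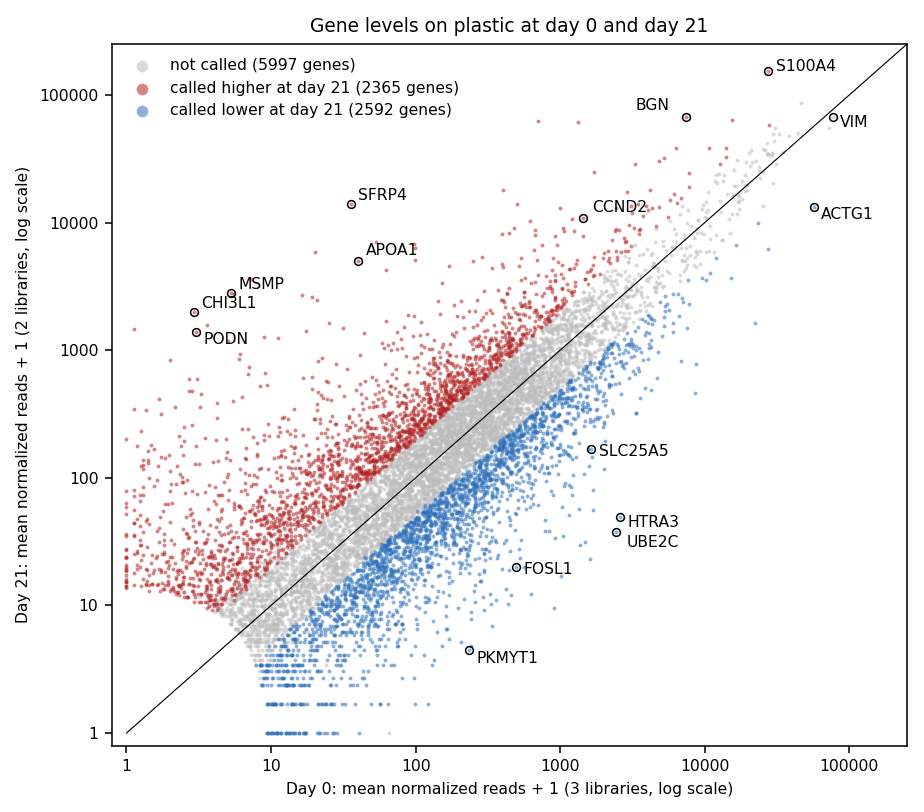
Mean normalized reads + 1 of the 10954 tested genes at day 0 (x axis, 3 libraries) and day 21 (y axis, 2 libraries), both on log scales; red genes were called higher, blue lower, grey not called, and the line marks equal values. PODN, CHI3L1 and MSMP lie at the upper left with under 10 normalized reads at day 0, S100A4 lies highest at day 21, and UBE2C, HTRA3 and PKMYT1 lie far below the line; the curved lower left edge is the minimum mean of 5.

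Cyclins divided by type. The D cyclins, which carry growth signals to the G1 kinases CDK4 and CDK6, rose in all 3 cases, while the cyclins of S phase and mitosis fell. CCND2 had 1693, 1168 and 1462 normalized reads at day 0 and 8094 and 13552 at day 21 (log2 fold change 2.88, SE 0.24, limma adjusted p = 4.2e-05), and CCND3 had 391, 382 and 388 at day 0 and 2531 and 2371 at day 21. CCND1 stood at 866, 643 and 715 at day 0 and 2154 and 3189 at day 21. The 2 days did not overlap for any of the D cyclins, and CCND2 differed most between the day 21 libraries. The mitotic cyclin CCNB1 went the other way, from 528, 572 and 483 to 13.8 and 30.9 (log2 fold change −4.60), as did the mitotic kinase CDK1 (−4.35). Of the 18 cyclins and kinases listed, 17 were tested, 3 rose, 12 fell, and CDK4 and CDK6 were not called (log2 fold changes −0.79 and −0.32, and −1.05 with a call for CDK4 on rescaling to the same total). The largest fall was that of PKMYT1, the membrane kinase that restrains CDK1 before mitosis, from 221, 255 and 222 to 6.9 and 0. CCNA2 and CCNE1, picked after their values were seen, had log2 fold changes of −3.63 and −1.64.

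Genes that hold cells out of the cycle did not move as a block. Of 18 tested inhibitors and quiescence genes, 5 rose and 7 fell, with a median of −0.26. CDKN1C, the imprinted inhibitor p57, rose from 8.44, 3.73 and 1.58 to 42.8 and 68.7 normalized reads. GAS6, a ligand first found in growth-arrested cells, rose from 66.8, 65.1 and 75.4 to 1129 and 1155, and the forkhead factor FOXO4 from 12, 15.5 and 13.8 to 218 and 203. Neither day overlapped the other for these 3 genes. The p21 gene CDKN1A was not called at a log2 fold change of 0.83 (adjusted p = 7.7e-05), although both day 21 libraries lay above day 0. The retinoblastoma gene RB1 fell from 38.7, 31.5 and 22.9 to 6.9 and 3.44, and its relative RBL1, with 64 day 0 reads and 1 day 21 read, was 11.2-fold lower (interval 1.93 to 447) but was not called without replicate 3 of day 0 (log2 fold change −2.43) or with reads thinned to the shallowest library (−0.72). CDKN3, a phosphatase of the cell cycle whose transcript peaks with mitosis, also fell (log2 fold change −3.58).

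The transcription factors that drive the S phase and mitotic genes were lower as well. Of 19 tested E2F, MYB and FOXM1 regulators, 10 fell and 1 rose. FOXM1, the activator of G2 and mitotic genes, went from 209, 253 and 259.7 to 4.14 and 3.44 normalized reads, with 109.8, 167 and 116 at day 3. MYBL2 fell with a log2 fold change of −4.50, and E2F8 had 565 day 0 reads and 1 day 21 read, 98.4-fold lower (interval 17.6 to 3894). The member that rose was MXD4, a MAX partner that opposes MYC, from 299, 290.1 and 342 to 903 and 1082. MYC itself had values of 861, 863 and 791 at day 0 and 425 and 412 at day 21, a log2 fold change of −1.0 at the threshold (adjusted p = 6.6e-05) that passed it on rescaling to the same total (−1.26) or without replicate 3 of day 0 (−1.04) or replicate 1 of day 21 (−1.02).

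Most tested genes that handle chromosomes fell. Kinetochore and spindle genes, which attach and move chromosomes, fell in 27 of 28 cases (median −3.46), and CENPK, at 8.13 and 5.51 normalized reads on average, was the 1 that was not called. The centromeric histone CENPA had 258, 226 and 236 at day 0 and 0 and 13.7 at day 21, and the spindle kinase AURKA had 930.3, 979.6 and 856 at day 0 and 24.8 and 41.2 at day 21. Condensin, cohesin and separation genes fell in 14 of 18 cases. The paralogs of topoisomerase II differed: TOP2A, the form of dividing cells, had a log2 fold change of −5.03, whereas TOP2B, the form of resting cells, stood at 521, 592 and 536 at day 0 and 872 and 659.8 at day 21 and was not called (0.47). Homologous recombination and Fanconi genes, which mend broken and stalled DNA, fell in 13 of 16 cases with a median of −3.0; placing members without reads at their bound gives −2.96. FANCD2 had a log2 fold change of −5.01, while FANCG and XRCC3 were not called (0.73 and 0.42).

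Genes that feed growth were also lower. Of 22 tested nucleotide synthesis enzymes, 16 fell and 6 were not called (median −2.12). RRM2, the regulated subunit of ribonucleotide reductase, went from 1738, 1712 and 1589 to 44.2 and 65.3 normalized reads, and RRM1, the larger subunit, from 264, 259 and 249 to 23.5 and 20.6. Serine and one-carbon enzymes fell in 7 of 12 cases, while 1 rose. With quantile normalization, a fit of all mapped groups, edgeR or DESeq2, 2 rose, as they did without replicate 1 of day 0. PHGDH, the entry enzyme of serine synthesis, went from 3392, 3574 and 3683 to 396 and 450.1, and the mitochondrial SHMT2, which passes a carbon unit from serine to folate, from 4815, 4504 and 4731 to 573 and 643. Amino acid transporters fell for 8 of 18 tested members, while 3 rose: SLC7A5, the leucine exchanger, went from 1090, 1053 and 1054 to 63.5 and 107, and SLC43A1, another carrier of large neutral amino acids, from 281, 242 and 234 to 1076 and 1405.

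Genes of the nucleus and nucleolus fell in most tested cases. Nucleolus and ribosome assembly genes, which build new ribosomes, fell in 17 of 27 cases and were otherwise not called (median −1.21), with NPM3 falling most, at −3.40. The ribosomal proteins themselves stood apart: of 77 tested, 1 rose, 7 fell and 69 were not called, with a median of 0.15 that changed sign on rescaling to the same total (−0.12) and with quantile normalization (−0.24). RPS12 had values of 48273, 40508 and 43908 at day 0 and 47106 and 53471 at day 21. RPL7, RPS3A and RPL9 had the largest falls (−2.59, −2.40 and −1.99), but ribosomal genes have many near-identical copies, so how their reads were shared is uncertain. Without replicate 1 of day 21, 4 fell and RPS3A was no longer called (−2.19), and without replicate 3 of day 0, 2 rose. Nuclear import and pore genes fell in 14 of 20 cases, led by the importin KPNA2 (−3.79).

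Chromatin assembly and lamina genes fell for 16 of 20 tested members, while 1 rose. The paralogous H3K27 methyltransferases went opposite ways. EZH2, picked after its values were seen and known as the enzyme of dividing cells, had 719, 707 and 689 normalized reads at day 0 and 44.2 and 75.6 at day 21 (log2 fold change −3.58, adjusted p = 9.7e-06). EZH1, the form of resting tissues, had 55.6, 65.1 and 56.8 at day 0 and 305 and 299 at day 21 (log2 fold change 2.34, adjusted p = 1.1e-05). The days did not overlap for either gene. HMGB3, a chromatin protein of immature cells, fell most (−4.97), while LBR, which ties chromatin to the nuclear envelope, was not called (−0.84, and −1.10 with a call on rescaling to the same total). Without replicate 2 of day 21, 2 members rose.

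**Figure D2:**
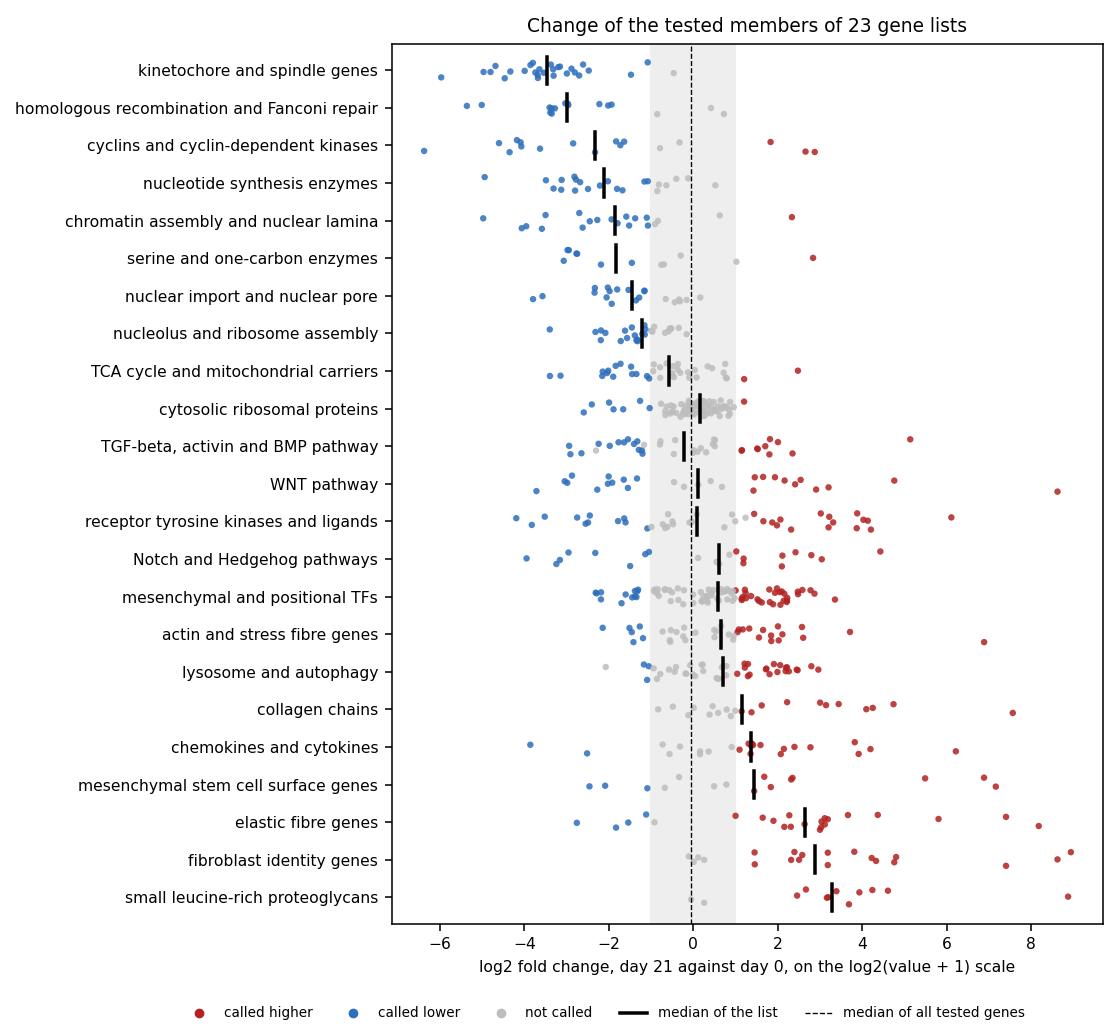
Log2 fold change of day 21 against day 0 (x axis, log2(value + 1) scale) for the tested members of 23 gene lists (rows); points are genes coloured by call, short black lines list medians, the dashed line the median of all tested genes (−0.05) and the grey band changes under 2-fold. Kinetochore and spindle genes lie furthest left (median −3.46) and small leucine-rich proteoglycans furthest right (3.29), while the signalling lists in the middle rows spread over both sides.

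Collagen genes rose where they were called, though many were not called. Of 40 collagen chains listed, 21 were tested, 11 rose and 10 were not called (median 1.15). On rescaling to the same total, 1 chain was called lower and the median was 0.89. Both day 21 libraries lay above day 0 for 16 of these 21, against 39.3% over all genes, and below for 2. COL5A3, a minor chain of fibrils, went from 0, 2.67 and 0.789 to 429 and 292 normalized reads. The short-chain collagen COL8A1, found in vessel walls, went from 183, 151 and 172 to 4147 and 4952, and COL18A1, of basement membranes, from 424, 469 and 538 to 8589.7 and 9563. Day 3 values of COL8A1 were 333, 322 and 319.5, well below both day 21 libraries. The basement membrane chains COL4A1 and COL4A2, picked after their values were seen, had log2 fold changes of 3.14 and 4.10. The fibrillar collagen I chains were not called: COL1A1 had a log2 fold change of 0.89, past 2-fold without replicate 1 of day 21, and COL1A2 had values of 18663, 19122 and 18868 at day 0 and 20896 and 14515 at day 21, which overlap (−0.12).

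Small leucine-rich proteoglycans, short proteins that bind and space collagen fibrils, rose in 10 of 12 tested cases and were not called in 2, with a median of 3.29. PODN went from 1.41, 2.67 and 1.97 to 1377 and 1416 normalized reads, 4.04, 0 and 1.79 at day 3 (log2 fold change 8.88, SE 0.25, adjusted p = 7e-07). BGN, biglycan, went from 7452, 6997 and 7650.2 to 66973 and 67976 and was among the 15 genes with most reads at day 21. ASPN, asporin, had 4 day 0 reads and 31 day 21 reads. LUM, lumican, at 189, 254 and 169.7 at day 0 and 249.8 and 151 at day 21, and OGN were not called, and their libraries overlapped. Decorin, DCN, picked after its values were seen, rose from 435, 469.8 and 385 to 2789 and 2673.

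Elastic fibre genes rose for 18 of 23 tested members, while 4 fell (median 2.64), and the lysyl oxidases, which crosslink the fibres, went both ways. LOX, lysyl oxidase, which joins collagen and elastin chains, went from 1782, 1764 and 1628 to 232 and 278 normalized reads, with 432, 367 and 516 at day 3. LOXL2 went from 4267, 4306 and 4105 to 1394 and 1014. LOXL1, the family member tied to elastin, and LOXL3 went up instead, LOXL1 from 1064, 973 and 1109 to 9645 and 8553 and LOXL3 from 72.4, 92.8 and 90.4 to 459.6 and 392; both, and LOXL4 with a log2 fold change of −1.12 (−0.96 without a call when replicate 1 of day 21 was left out), were picked after their values were seen. The 2 days did not overlap for any of these 5 oxidases. The fibre scaffold genes ELN and MFAP5 had log2 fold changes of 8.18 and 7.41, FBLN7 went from 1.41, 1.07 and 1.18 to 129.7 and 117, and FBLN2 fell from 1971, 1893 and 1864 to 667 and 646.

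Proteases and their inhibitors went both ways. PLAUR, the urokinase receptor, picked after its values were seen, had 2020.3, 2004 and 2121 normalized reads at day 0, 1772, 2079 and 1846 at day 3 and 163 and 227 at day 21 (log2 fold change −3.41). The serine protease HTRA3 had the largest fall of the list, from 2758, 2389.6 and 2609 to 31.7 and 65.3, and had 151, 184 and 111 at day 3. SERPINF1, a secreted serpin that restrains vessel growth, rose from 18.3, 16 and 15 to 1439 and 1364, and ADAMTS15, a proteoglycan-cleaving protease, from 0.703, 0.533 and 0.789 to 388 and 443. The broad inhibitor A2M had 2 day 0 reads and 94 day 21 reads, 269.8-fold higher (interval 72.7 to 2261). Gelatinase A, MMP2, picked after its values were seen, had a log2 fold change of 3.00, while its activator MMP14 was not called (0.65). In all, 11 of 27 tested members rose and 5 fell.

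Matricellular proteins, which modulate cell contact with matrix, rose for 6 of 12 tested members, while 4 fell. Thrombospondins divided: THBS2 went from 34.5, 46.9 and 38.7 to 555 and 522 and THBS3 from 61.2, 70.4 and 88.4 to 464 and 409, while THBS1 fell from 8588, 7962 and 6632 to 2991 and 1584. Osteopontin, SPP1, had 7208, 6906 and 6268 at day 0, 16047, 16629 and 19390.5 at day 3 and 631 and 1021 at day 21, highest in the middle of the course. Hyaluronan and cell surface proteoglycan genes rose for 3 of 14 tested members (5 without replicate 3 of day 0), while 3 fell, near the shares over all genes. CD44, the hyaluronan receptor, fell from 1497, 1424 and 1364 to 334 and 337, and HYAL1, which degrades hyaluronan, rose from 46.4, 58.1 and 58.4 to 399 and 429.5.

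Actin and tropomyosin genes differed from gene to gene. The smooth muscle actin ACTG2, picked after its values were seen, went from 11099, 10149.7 and 11012 to 37788 and 39307 normalized reads, against the fall of ACTG1 above, while ACTB was not called (−0.40). Actin genes have near-identical coding sequences, so reads that fall there cannot be assigned with certainty. The tropomyosin gene TPM2 rose from 16156, 15502 and 14976 to 58928 and 67711. Its relative TPM3 fell from 1611, 1578 and 1605 to 473 and 715. TPM4, picked after its values were seen, fell from 12627, 11478 and 11506 to 5945 and 4543. TPM4 had no call when replicate 2 of day 21 was left out (−1.0). Caldesmon, CALD1, went from 4898, 4898 and 4555 to 21329 and 39596, and the calponin CNN3 from 347, 276 and 271 to 124 and 85.9. Of 37 tested actin and stress fibre genes, 15 rose and 6 fell (median 0.66). The smooth muscle myosin MYH11 had a log2 fold change of 6.89, and ACTA2, at 1.08, lost its call after quantile normalization or rescaling to the same total.

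**Figure D3:**
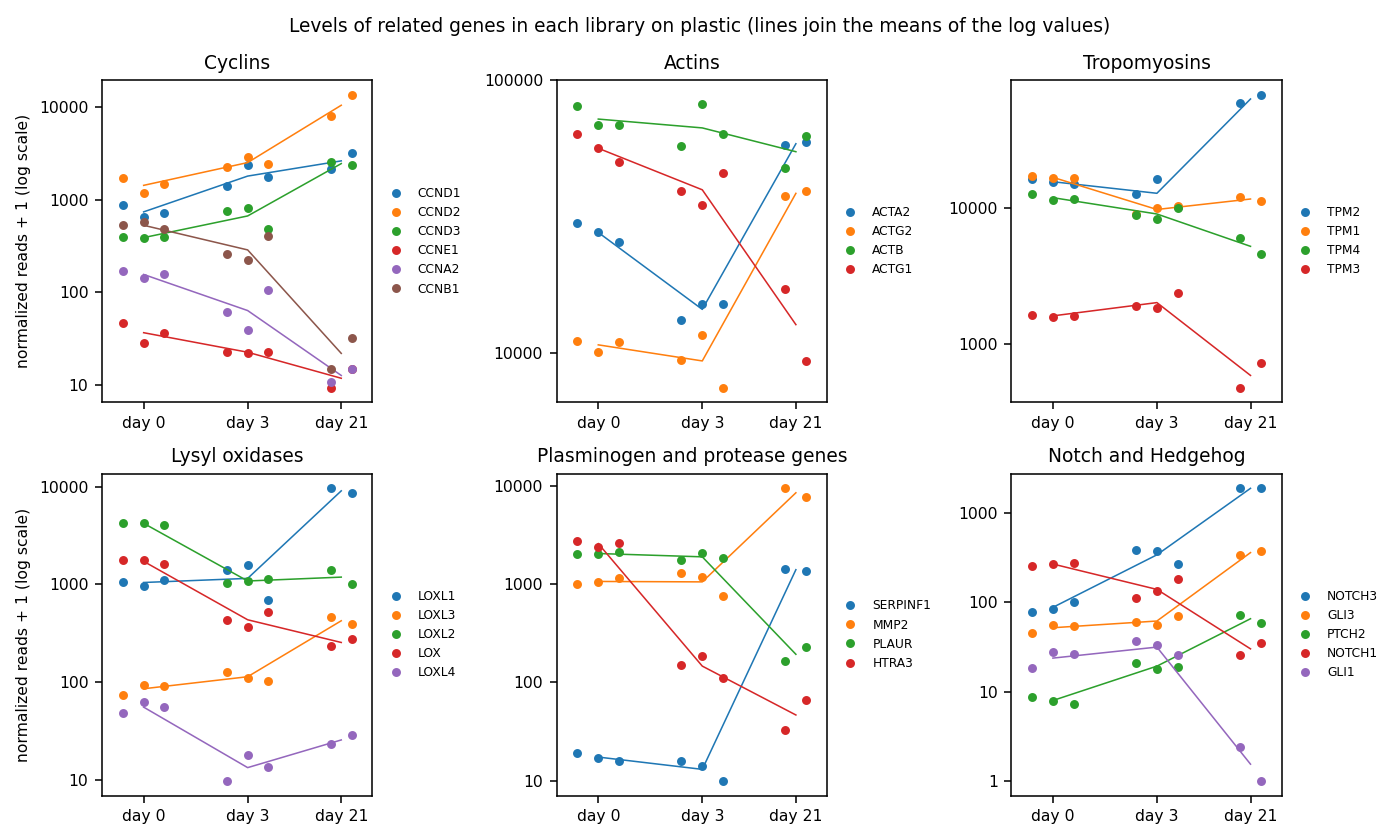
Normalized reads + 1 (y axis, log scale) of related genes in each plastic library at day 0, day 3 and day 21 (x axis), 1 point per library, with lines joining the group means of the log values. D cyclins, TPM2, LOXL1, SERPINF1 and NOTCH3 lie higher at day 21 than at day 0, and CCNB1, ACTG1, TPM3, LOX and NOTCH1 lie lower; HTRA3 and LOX are already low at day 3, while LOXL1 and SERPINF1 are not yet high.

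Adhesion receptors shifted in both directions. Of 15 tested integrin chains, 5 rose and 6 fell. ITGA3, a laminin-binding chain, went from 893, 825 and 870 to 108 and 182 normalized reads and ITGA7, the laminin receptor of muscle, from 649, 579 and 553 to 109 and 155, although ITGA7 stood at 1145, 1335 and 1105 at day 3. ITGB5, a vitronectin-binding chain, rose from 316, 352 and 338 to 4002 and 4749, and the collagen-binding ITGA10 from 10.5, 17.6 and 9.87 to 204 and 151. The shared chain ITGB1 was not called (0.49). Among junction genes, 6 of 16 rose and 2 fell: CDH2, N-cadherin, went from 717, 677 and 758 to 139 and 85.9, CDH3 from 16.2, 14.9 and 19.7 to 144 and 155 and CDH13 from 1221, 924 and 1198 to 2469 and 4075.

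Sarcomere genes of striated muscle held few reads on either day. Of 46 listed, 11 reached the minimum mean, of which 2 rose and 2 fell, and the list as a whole took 0.0208 to 0.0223% of normalized reads at day 0 and 0.0034 to 0.00473% at day 21. TNNT3, a fast troponin, had 2 day 0 reads and 74 day 21 reads, 212-fold higher (interval 56.8 to 1787). MYL4, an atrial and embryonic light chain, had means of 3.51 and 9.29 normalized reads, and its call was lost without any single day 0 library or replicate 2 of day 21, with edgeR or DESeq2, under the replicate block, on rescaling, with a pseudocount of 4 and with thinned reads. Leaving out replicate 1 of day 21 gave 4 rises and 4 falls, and rescaling to the same total 1 rise and 5 falls. ANKRD1, a titin-associated stress gene, made most of the fall in that share, from 1145, 1189 and 1099 to 62.1 and 110. Among satellite cell and myoblast regulators, 1 of 13 rose and 4 fell. The inhibitors ID1 and ID2, which block basic helix-loop-helix factors, fell from 1698, 2034 and 1886 to 342 and 258 and from 823, 815 and 835 to 108 and 110, while ID3 was not called (−0.43). Pericyte and mural cell genes rose for 8 of 14 tested members, while 3 fell: the amine oxidase AOC3 went from 6.33, 9.6 and 7.89 to 221 and 175, and NDUFA4L2, a mitochondrial gene of pericytes and hypoxia, fell from 229.9, 256 and 279 to 12.4 and 6.87, with 10.1, 16.1 and 7.14 at day 3.

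Growth factor ligands and receptors rose and fell in similar numbers. Of 41 tested genes of receptor tyrosine kinase signalling, 16 rose and 11 fell. Among ligands, HGF, the scatter factor, rose from 11.3, 17.6 and 30.4 to 312 and 364 normalized reads, and FGF2, basic FGF, from 7.74, 13.9 and 13.8 to 254 and 206. FGF5 fell from 246, 262 and 262 to 16.6 and 10.3, and VEGFA, picked after its values were seen, from 214, 249 and 209 to 40 and 37.8. The medium held VEGF, IGF and FGF throughout these 21 days. Among receptors, the HGF receptor MET fell from 85.8, 72 and 64.7 to 2.76 and 10.3, opposite to its ligand, and FLT1, a VEGF receptor, from 101, 103 and 97.5 to 5.52 and 6.87. IGF2 and its clearance receptor IGF2R both rose, IGF2 with a log2 fold change of 6.11 and IGF2R from 624, 672 and 669 to 5587 and 6539.

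Genes of the TGF-beta, activin and BMP pathway also went both ways, 10 higher and 13 lower of 38 tested. The activin subunit INHBA rose from 548, 544 and 608 to 1919.7 and 2701. Among receptors, ACVRL1 and its partner ENG, which together bind BMP9, rose from 2.11, 4.8 and 1.97 to 129.7 and 134 and from 586, 711 and 692 to 2935 and 3879.5. Downstream, ID1 and ID2, which BMP signals induce, fell as given above, and the BMP effector SMAD9 fell from 35.9, 46.4 and 40.7 to 2.76 and 6.87. In the WNT pathway 11 of 27 rose and 11 fell. The secreted antagonist SFRP4 went from 33.1, 30.9 and 40.3 to 14226 and 13858, with 42.4, 50.3 and 48.2 at day 3, and SFRP1 from 2.81, 5.33 and 4.34 to 138 and 134. Among WNT ligands WNT11 rose from 14.1, 11.7 and 10.3 to 150.4 and 92.8 and WNT2B fell (−2.98), and WNT10B, with 71 day 0 reads and 0 day 21 reads, was at least 4.12-fold lower.

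The Notch receptors NOTCH1 and NOTCH3 went opposite ways. NOTCH1 had 258, 269.8 and 279 normalized reads at day 0, 112, 133 and 180.3 at day 3 and 24.8 and 34.4 at day 21, and NOTCH3, the receptor of vascular smooth muscle, had 78.1, 83.7 and 101 at day 0, 391, 374 and 271 at day 3 and 1903 and 1900.2 at day 21. The days did not overlap for either receptor, while their ligand JAG1 and target HEYL were not called (0.86, or 1.17 with a call without replicate 1 of day 21, and 0.11). In the Hedgehog pathway, GLI3, mostly a repressor, rose from 45, 54.9 and 54.1 to 342 and 381, and GLI1, the activator and readout of the pathway, had 139 day 0 reads and 1 day 21 read, 24.2-fold lower (interval 4.28 to 963). Of 21 tested members of both pathways, 9 rose and 8 fell. Axon guidance genes rose for 10 of 27 tested members, while 3 fell (5 without replicate 2 of day 21), with the repellent SLIT3 at 2.11, 1.07 and 1.97 at day 0 and 506 and 677 at day 21 and the netrin NTN4 at 526, 520.5 and 492 at day 0 and 75.9 and 55 at day 21.

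Chemokine and cytokine genes rose for 15 of 24 tested members, while 2 fell, or 1 without replicate 3 of day 0 (median 1.36). CX3CL1, a membrane-bound chemokine, went from 0.703, 1.07 and 0.789 to 181 and 103 normalized reads. CCL2, which draws monocytes, had 12.7, 15.5 and 13 at day 0, 460.1, 307 and 257 at day 3 and 322 and 151 at day 21. IL16 had 0 day 0 reads and 16 day 21 reads, at least 30.6-fold higher. IL1RN, the antagonist of the interleukin 1 receptor, had 127 day 0 reads and 1 day 21 read, 22.1-fold lower (interval 3.9 to 881). Antigen presentation genes rose for 7 of 18 tested members, while 2 fell. The immunoproteasome subunits parted, PSMB10 rising from 345, 312 and 313 to 1925 and 2199 and PSMB9 falling from 64.7, 72.5 and 79.3 to 30.4 and 20.6, and the peptide transporter TAP1 fell from 199.7, 153 and 154 to 17.9 and 13.7.

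Blood and immune cell markers moved beside these lists. Of 15 listed, 6 had values and 5 were tested, of which 3 rose and 2 were not called, and the 6 summed to 36.3 to 38.3 normalized reads at day 0 and 131 to 182 at day 21. CD14, the monocyte and macrophage co-receptor for endotoxin, had 0.703, 0.533 and 1.58 at day 0 and 56.6 and 65.3 at day 21, the largest change of the 6. LAPTM5, a lysosomal membrane protein of blood cells, had 3.52, 0.533 and 2.37 at day 0 and 17.9 and 30.9 at day 21. CSF1R, the macrophage growth factor receptor, had 7.74, 13.3 and 7.11 at day 0 and 27.6 and 55 at day 21, and the macrophage marker CD68 was not called (−0.01). None of the 6 was at 0 in all 5 libraries, and their part in the immune results was not tested. Of 15 endothelial markers, 5 had values, summing to 52.8 to 55.7 at day 0 and 85.6 to 134 at day 21, of which TEK and VWF rose and 3 were not called. The 2 epithelial markers with values, CDH1 and KRT19, summed to at most 6.93, and the 1 red cell marker, AHSP, stood at or below 6.90 in every library. Of the 3 neural and glial markers with values 2 were tested and not called, and the 3 summed to 162 to 167 normalized reads at day 0 and 230 to 237 at day 21. The markers without values were not analysed here.

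Genes of degradation and lipid transport rose more often than they fell. Lysosome and autophagy genes rose for 20 of 45 tested members, while 3 fell (median 0.71), with 7 falls when replicate 1 of day 21 was left out and 0 when replicate 2 was. The lysosomal proteases CTSF and CTSB rose from 257, 235 and 279 to 2112 and 1907 and from 659, 759.9 and 686 to 3744 and 4041 normalized reads, and the autophagosome gene MAP1LC3A from 447, 476 and 410.1 to 3122 and 3055. LAMP2, a lysosomal membrane protein, went the other way (−1.05), a call that DESeq2 (−0.98) and the fit without replicate 2 of day 21 (−0.80) did not make. Lipoprotein and lipid transport genes rose for 11 of 23 tested members, while 4 fell. APOA1, the main protein of HDL, went from 43.6, 34.1 and 39.5 to 4857 and 5072, with 47.2, 69.4 and 28.6 at day 3. PLTP, which moves phospholipid between lipoproteins, went from 2.11, 2.13 and 2.37 to 391 and 329.9, and clusterin, CLU, from 99.2, 98.1 and 97.5 to 5745 and 4474. FABP3, a carrier of fatty acids, had 394, 304 and 319 at day 0, 2840, 2651 and 1739 at day 3 and 60.7 and 75.6 at day 21, and its day 3 libraries lay above all others.

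TCA cycle and mitochondrial carrier genes fell for 14 of 38 tested members, while 2 rose, or 1 without replicate 2 or 3 of day 0 or replicate 2 of day 21. SLC25A5, the ADP and ATP carrier of growing cells, went from 1722, 1612 and 1583 to 225 and 107, while its relative SLC25A6 was not called (−0.48). DLD, a subunit of the pyruvate and oxoglutarate dehydrogenases, and IDH2 fell (−3.14 and −2.15), and SDHB was not called (−0.09). Fatty acid oxidation and ketone genes rose for 5 of 28 tested members, while 3 fell (5 without replicate 1 and 1 without replicate 2 of day 21): PDK4, the kinase that shuts pyruvate out of the TCA cycle, rose from 4.22, 3.73 and 1.97 to 175 and 92.8, and ACAT1 fell from 454, 507 and 472 to 228 and 165. Detoxification and antioxidant genes rose for 20 of 47 tested members, while 9 fell. Those that rose included secreted and amine- or aldehyde-oxidising enzymes, GPX3 from 7.03, 5.87 and 5.92 to 3377 and 3794 and AOX1 from 4.22, 4.8 and 3.16 to 1315 and 1031, with 65.3, 44.3 and 41.1 at day 3. Those that fell included the thioredoxin couple of the cytosol, TXN from 1588, 1373 and 1320 to 457 and 323 and TXNRD1 from 1149, 1279 and 1225 to 236 and 347.

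Among transcription factors of the mesenchyme, more rose than fell. Of 86 tested mesenchymal and positional factors, 30 rose and 12 fell. TCF4, a basic helix-loop-helix factor of stromal cells, rose from 184, 221 and 237 to 1277 and 1684 normalized reads, and the HOX cofactor MEIS3 from 3.52, 4.8 and 6.71 to 63.5 and 55. TCF21, HAND1 and MSX2, regulators of embryonic mesoderm, fell with log2 fold changes of −2.31, −2.29 and −2.19. PRRX1, a marker of mesenchyme, was not called (0.57). Immediate early and stress factors fell for 11 of 28 tested members, while 5 rose. The AP-1 subunit FOSL1 fell from 519, 526 and 438 to 13.8 and 24.1 and KLF5, a factor of proliferating smooth muscle, from 103, 102 and 95.5 to 11 and 10.3. CEBPD rose from 446, 567 and 551 to 4963 and 4103, and KLF15 from 3.52, 5.33 and 3.55 to 119 and 41.2. Of 15 clock genes 3 rose and 3 fell (1 without replicate 1 of day 0), near the shares over all genes. PER1, PER2 and DBP rose (4.09, 2.03 and 3.12), and BHLHE40 fell (−1.67). The hour of sampling is not stated in the labels.

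The labelled identity was checked against its surface genes. All 5 libraries held reads of THY1, ENG, CD44 and NT5E, surface genes commonly listed for mesenchymal stem cells. These genes did not move together: THY1 had a log2 fold change of 5.49, ENG 2.35, NT5E −0.67 without a call, and CD44 −2.09. This check covers genes that such cells carry and not those they lack. CD14 rose as given above, and CD34, picked after its values were seen, had 0 day 0 reads and 13 day 21 reads, at least 24.9-fold higher. Of 15 tested surface genes, 8 rose and 3 fell. ANPEP, the aminopeptidase CD13, rose from 7.74, 8 and 7.89 to 1383 and 1172 normalized reads, and VCAM1, an adhesion molecule, had 3 day 0 reads and 212 day 21 reads, 406-fold higher (interval 137 to 1983). The surface protein SUSD2 fell from 217, 259 and 222 to 33.1 and 51.5. Genes of tissue fibroblasts rose in 16 of 20 tested cases and were not called in 4, with a median of 2.88. The scavenger receptor SCARA5 went from 3.52, 3.73 and 6.32 to 3442 and 2041, and IGFBP4 was not called (−0.11).

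Lineage lists were thinly measured. Tendon genes had 8 of 16 members tested (3 higher, 2 lower), chondrocyte genes 4 of 20 (3 higher, 1 not called), osteoblast genes 7 of 20 (2 higher, 1 lower) and adipocyte genes 16 of 25 (6 higher, 1 lower). Osteoblast falls numbered 2 without replicate 1 of day 21, adipocyte falls 2 without replicate 2, and tendon falls 4 on rescaling to the same total. Lubricin, PRG4, which coats joint and tendon surfaces, rose from 0.703, 1.6 and 1.58 to 236 and 186 normalized reads, and fibromodulin, FMOD, from 1349, 1413 and 1538 to 7872 and 7883, while the tendon regulator MKX fell from 287, 267 and 272 to 56.6 and 37.8. The cartilage factor SOX5 rose (2.22), RUNX2, the bone regulator, was not called (0.20), and PTH1R, the parathyroid hormone receptor, rose from 2.11, 1.07 and 0 to 52.4 and 72.2. The fat mobilising lipase PNPLA2 rose from 160.3, 162 and 169 to 1109.6 and 821, and FASN, fatty acid synthase, had 1143, 1236 and 1245 at day 0, 5378, 6419.7 and 5857 at day 3 and 1435 and 1447 at day 21, without a call.

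The weight of these groups in the RNA pool was read from shares of each library, with no test. Fibroblast identity genes took 0.611 to 0.68% of normalized reads at day 0, 1.06 to 1.47% at day 3 and 2.84 to 3.22% at day 21. Most of this was 1 gene, S100A4, with 0.400 to 0.465% at day 0 and 1.86 to 2.33% at day 21. BGN likewise held most of the share of the proteoglycans that follow. Small leucine-rich proteoglycans took 0.161 to 0.172%, 0.15 to 0.211% and 1.16 to 1.18%, and collagen chains 1.35 to 1.41%, 0.869 to 1.06% and 2.49 to 2.61%, lowest at day 3. Nucleotide synthesis enzymes took 0.288 to 0.294%, 0.199 to 0.235% and 0.0677 to 0.0748%, and kinetochore and spindle genes 0.229 to 0.237%, 0.149 to 0.193% and 0.0187 to 0.0211%. Nucleolus and ribosome assembly genes took 0.383 to 0.384%, 0.229 to 0.313% and 0.124 to 0.134%, and lysosome and autophagy genes 0.441 to 0.464%, 0.548 to 0.673% and 0.804 to 0.892%. TCA cycle and carrier genes took 0.713 to 0.728% at day 0, 0.72 to 0.778% at day 3 and 0.361 to 0.391% at day 21. Day 21 did not overlap either earlier day for any of these 8 lists, which were picked from 55. Other lists did overlap: matrix proteases and inhibitors took 0.652 to 0.688% at day 0 and 0.542 to 0.686% at day 21. Cytosolic ribosomal proteins took 18.2 to 19%, 15.8 to 17.6% and 18.5 to 19.3%, and day 0 and day 21 overlapped. The 100 genes with most reads in a library took 32.2 to 33.8% at day 0 and 37.9 to 40.2% at day 21.

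**Figure D4:**
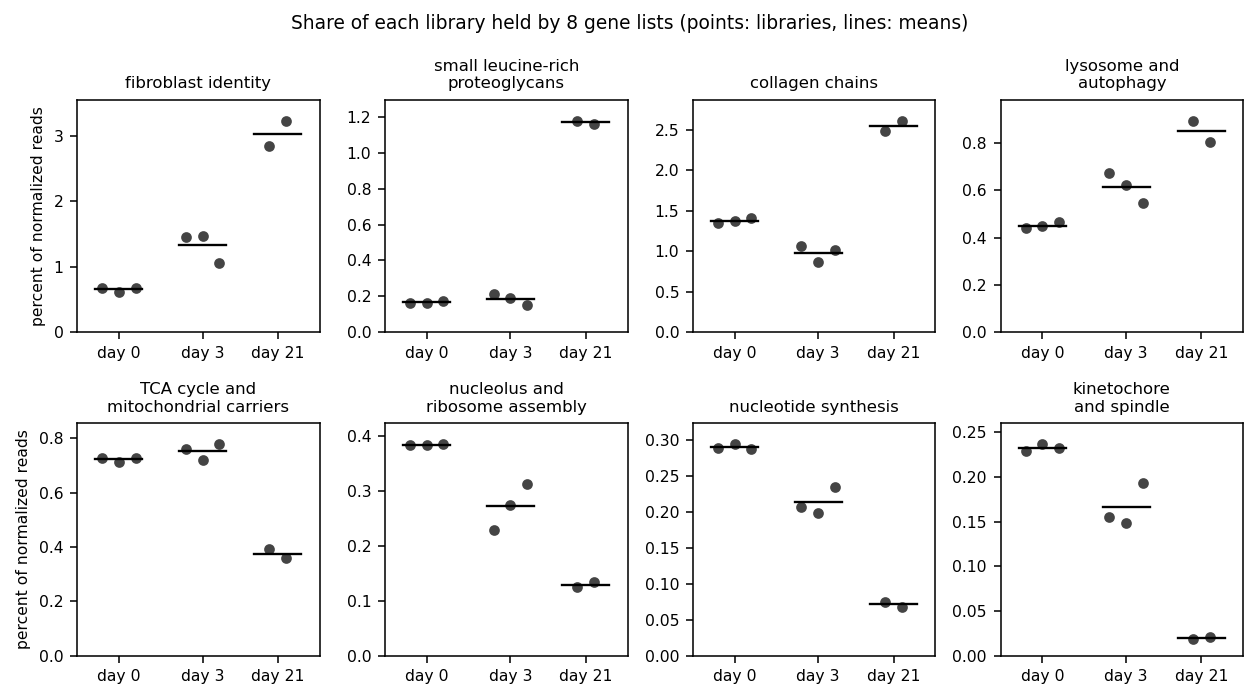
Percent of all normalized reads (y axis, from 0) held by 8 gene lists in each plastic library at day 0, day 3 and day 21 (x axis); points are libraries and lines group means. Fibroblast identity and proteoglycan genes are highest at day 21, with most of these 2 shares held by S100A4 and BGN. Collagen chains dip at day 3 before their day 21 high, and kinetochore and nucleotide synthesis genes step down from day 0 to day 21.

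The 2 libraries of day 21 were less alike than those of day 0: 12.8% of tested genes differed more than 2-fold between them, against 1.45 to 2.01% between pairs of day 0 libraries, and the second has the fewest reads. Among genes with a day 21 mean of at least 100, RPS27 differed most, at 273 and 1192 normalized reads, followed by MOSPD2 at 159 and 44.7. ISG15, an interferon-induced modifier, had 447 and 134, and F2RL2, a thrombin receptor, 312 and 103. Both day 21 libraries still lay above day 0 for MOSPD2, whose day 0 values were 30.9, 41.6 and 24.5, and for ISG15, at 3.52, 2.67 and 3.55. The call of MOSPD2 was lost without any single day 0 library (log2 fold changes 1.21 to 1.58), without replicate 1 of day 21 (0.49), on rescaling to the same total (1.13) and with limma's trend and robust options off (1.39).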

How the data were processed

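RNA of the 5 plastic libraries was measured by MARS-seq, which counts the 3′ ends of polyadenylated transcripts. RNA came from a PureLink kit, per the labels' protocols. The submitters' processing notes name cutadapt, STAR, HTSeq, DESeq and the build ARS-UCD1.2, and the use of strand or molecular identifiers is not stated. The deposited table holds a normalized signal, read counts that the authors divided by 1 factor per library. Undoing this division gave whole reads for 100% of values (tolerance 0.1). A further 2 columns whose names fit no labelled sample were not used.

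With R 4.3.3, limma 3.58.1 compared log2(value + 1) using its trend and robust options, over genes with a mean of at least 5, which left out 1940. Fold changes on this scale understate the change of genes with few reads. Tests were two-sided and adjusted by the Benjamini-Hochberg method over all 10954 genes, and calls needed an adjusted p under 0.05 and a log2 fold change of at least 1. Reads were simulated for 10954 genes of this comparison, of which 200 were changed, with the library factors kept. In them, 84% of 3-fold and 91% of 6-fold changes were recovered and 5 unchanged genes were called. The data had 45.3% of genes called and factors that had to be estimated, so these rates need not hold for them. Alternatives comprised other pseudocounts, filters and scalings, a fit of all mapped groups, the replicate number as a block, limma without trend or robust estimation, edgeR 4.0.16 and DESeq2 1.42.0 on the recovered reads, and each library left out. Thinning of reads to the shallowest library was added after the data had been seen.

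The comparison and the gene lists were chosen with earlier results of these data known. Genes are named by a rule: the 15 largest rises and falls, up to 3 of each direction and the 2 most abundant uncalled members per list, the 15 most abundant genes of each day, the 5 largest differences between the day 21 libraries, and 5 landmarks. It names 374 genes, of which the text gives examples picked with their values known. ACTG2, CCNA2, CCNE1, CD34, COL4A1, COL4A2, CRABP1, DCN, EZH2, HIF3A, LOXL1, LOXL3, LOXL4, MMP2, NT5E, PLAUR, SST, TPM4 and VEGFA were added after their values were seen. The planned search of promoters was not run, as no sequence was used here, and no coordinates are given.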

Additional observations from a re-analysis of the deposited data

How the results depend on the processing

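In every alternative run, the counts over all genes stayed within 1.5 times those reported, and no called gene was called in the opposite direction. Rises numbered 1858 (rescaling to the same total) to 2571 (no filter) and falls 2187 (a minimum mean of 20) to 3243 (rescaling). Leaving out 1 library gave 2227 to 2561 rises and 2404 to 2926 falls; without 1 day 21 library only day 0 gives the spread, so those fits are no check of the day 21 spread. For comparison, edgeR on recovered reads gave 2340 and 2548, and DESeq2 2332 and 2363. Samples that share a replicate number showed little shared deviation (correlations −0.0076 and −0.027 for the 2 numbers). The deviations of the 2 day 21 libraries mirror each other, so these values cannot tell whether the numbers pair samples. The fit with the replicate block gave 2326 and 2584.

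Some list medians changed sign. Without a filter, the median was −0.45 in place of 0.42 for matricellular proteins and 0.41 in place of −0.40 for integrins. With a minimum mean of 20 it was 1.28 for matricellular proteins, and 0.058 in place of −0.21 for the TGF-beta, activin and BMP pathway. Rescaling to the same total gave −0.070 for fatty acid oxidation, −0.0033 for clock genes, −0.12 for ribosomal proteins and −0.11 for glycosylation enzymes, and quantile normalization −0.24 for ribosomal proteins. Uncalled genes that changed sign were RPS12 (−0.080 on rescaling, −0.49 with quantile normalization), RUNX2 (−0.065) and FASN (−0.010) on rescaling and, when 1 day 21 library was left out, F2RL2 (−0.18 to 1.41), RPS27 (−0.38 to 1.74) and ID3 (−0.88 to 0.023). The cause was not tested. ACTA2 was not called on rescaling (0.81) or with quantile normalization (0.39).

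Depth limits low genes most: in the shallower day 21 library 1 read is worth 3.44 normalized reads and 1302 genes are at 0.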

Other observations

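Receptors for small ligands were among the genes that appeared on plastic at day 21. Of 26 tested G protein-coupled receptors, 12 rose and 6 fell. P2RY14, which senses sugar nucleotides, had 1 day 0 read and 71 day 21 reads, 408-fold higher (interval 70.8 to 16320). The prostacyclin receptor PTGIR had 1 and 40, 229.6-fold higher (interval 38.9 to 9294). ADRA1D, an adrenergic receptor of vascular smooth muscle, rose from 0.703, 0.533 and 1.18 to 42.8 and 20.6 normalized reads. ADGRG1, an adhesion receptor that binds collagen III, fell from 46.4, 44.3 and 45.8 to 4.14 and 6.87 after 160.3, 148 and 109 at day 3. Imprinted genes rose for 8 of 16 tested members, while 2 fell: the growth-promoting IGF2 and the growth-restraining CDKN1C both rose, and GRB10, which restrains insulin and IGF receptors, fell from 567, 591 and 548 to 261 and 237. Survival and p53 target genes rose for 6 of 21 tested members, while 6 fell, near the shares over all genes. BCL2L1 was higher (log2 fold change 2.17) and BIRC5, a survival gene that also serves mitosis, lower (log2 fold change −4.03). Glycosylation and sulfation enzymes rose for 9 of 30 tested members, while 7 fell, also near those shares. The falls were led by MAN1A1, a mannosidase of the Golgi, from 2361, 2403 and 2234 to 299 and 337.

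Some further genes changed greatly, of which SST, CRABP1 and HIF3A were picked after their values were seen. Somatostatin, SST, a peptide hormone, had 7.03, 4.8 and 6.32 normalized reads at day 0, 115, 78.5 and 62.5 at day 3 and 602 and 876 at day 21. CRABP1, a retinoic acid binding protein, went from 6.33, 2.67 and 8.68 to 711 and 581. HIF3A, a hypoxia-inducible factor subunit, had 2 day 0 reads and 139 day 21 reads, 399-fold higher (interval 108 to 3327). The acute phase genes SAA3 and M-SAA3.2 had 1 and 2 day 0 reads and 406 and 401 day 21 reads, 2331-fold higher (interval 416 to 92290) and 1151-fold higher (interval 317 to 9537), but these near-identical copies may share reads. One gene with no symbol, ENSBTAG00000054745, was among the 15 with most reads at day 21 and had 1262, 1225 and 1469 normalized reads at day 0, 93, 78.5 and 71.4 at day 3 and 56363 and 67216 at day 21.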
